A study of Homo sapiens with 6 samples.

Results

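The genes described here encode the SF3a and SF3b complexes of the U2 small nuclear ribonucleoprotein and the U2AF heterodimer, and include SF3B4, the protein that the series names as a reader of RNA methylated by METTL16. The 10 genes were SF3B1, SF3B2, SF3B3, SF3B4 and PHF5A of SF3b, SF3A1, SF3A2 and SF3A3 of SF3a, and U2AF1 and U2AF2. Peaks of N6-methyladenosine (m6A) were taken from wild-type HEK293T cells, an established line of human embryonic kidney origin transformed to express SV40 large T. In MeRIP-seq, RNA fragments pulled down with an m6A antibody (IP) are sequenced and set against RNA fragments sequenced without the pull-down (input). The experiment was run 3 times in the same cells with no treatment or second genotype, and each repeat, MeRIP 1, 2 and 3, had 1 IP and 1 input library and 1 list of peaks. A peak belonged to a gene when its centre lay in the hg19 window of that gene and on its strand. By this rule 21 of 61147 peaks belonged to the 10 genes, with 7 of 21286 in MeRIP 1, 6 of 19851 in MeRIP 2 and 8 of 20010 in MeRIP 3 (7 ± 1 peaks per list, SD, n = 3 lists). Peaks of the 3 lists that overlapped by 1 bp or more on a strand were joined, and the 21 peaks formed 9 of the 25737 regions of the series.

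Introns are recognised at the branch site and the 3′ splice site. U2AF2 binds the polypyrimidine tract and U2AF1 the AG at the end of the intron, after which the U2 particle, with SF3a and SF3b, pairs with the branch site. Within SF3b, SF3B1 forms with PHF5A the pocket that holds the branch adenosine, and SF3B4 contacts the RNA beside it. m6A is placed on most mRNAs by METTL3 with METTL14, most often in long exons and near the stop codon, whereas the targets of METTL16 are defined by sequence and fold, and include U6 small nuclear RNA and the mRNA of MAT2A. A peak in one of these genes is read here as a mark on the message that encodes the splicing factor, and says nothing of the RNA that the factor binds. The labels do not say whether the libraries kept strand, so for every gene here this reading was not tested.

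Peaks in U2AF2 and SF3A3 began within a short distance of the upstream end of the gene window, and the start of each gene is therefore shown, with the first 50 transcribed bases in capitals and the 250 bases before them in lower case. The sequences are those of RefSeq for GRCh38.p14, another build than the hg19 of the peaks, so the peaks were not placed on them. The windows were longer than the RefSeq genes, by 991 bp for U2AF2 and 138 bp for SF3A3. The upstream end of a window therefore need not be the start shown, and a peak may begin before that start. U2AF2 is shown from chr19:55654785-55655084 on the plus strand and SF3A3 from chr1:37989973-37990272 on the minus strand, each 5′ to 3′.
U2AF2: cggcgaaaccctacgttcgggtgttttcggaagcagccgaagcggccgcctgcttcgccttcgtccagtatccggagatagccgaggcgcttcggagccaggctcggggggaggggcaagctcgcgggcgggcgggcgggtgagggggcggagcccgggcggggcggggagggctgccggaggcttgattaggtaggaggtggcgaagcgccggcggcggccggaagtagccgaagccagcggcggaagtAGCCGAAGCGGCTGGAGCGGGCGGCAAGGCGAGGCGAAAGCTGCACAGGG
SF3A3: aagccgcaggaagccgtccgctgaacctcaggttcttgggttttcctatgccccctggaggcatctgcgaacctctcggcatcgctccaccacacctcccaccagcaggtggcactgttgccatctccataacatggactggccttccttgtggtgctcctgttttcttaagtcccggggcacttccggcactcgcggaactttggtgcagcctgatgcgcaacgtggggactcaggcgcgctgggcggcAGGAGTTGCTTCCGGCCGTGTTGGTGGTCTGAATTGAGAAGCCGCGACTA
GGACT, a common form of the site that METTL3 methylates, was not found in the 50 transcribed bases of either gene, on either strand, nor in those of the 8 of the 10 genes with an entry in the table. It was found on the gene's strand in these bases in 4.90% of all 35116 entries and on either strand in 9.62%. Over the whole 300-base windows GGACT was found on the gene's strand in SF3A3, SF3B1 and SF3B4, beside 25.3% of all entries, and counting either strand also in U2AF1, beside 44.2%. Of the 300 bases 250 lie before the RefSeq start, so GGACT in them is not a site in a message that begins at that start. TACAGAGAA, the sequence that METTL16 methylates in U6, was absent from the whole 300-base windows of the same genes on both strands, and present in 0.316% of all entries. With shares this low over all entries, the absence of TACAGAGAA, and of GGACT from the 50 bases, in 8 genes says little about these genes.

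Listed peaks were found in 4 of the 10 genes: U2AF2, SF3B2, PHF5A and SF3A3. The other 6, SF3B1, SF3B3, SF3B4, SF3A1, SF3A2 and U2AF1, had no peak on their strand in any of the 3 lists. The share of all genes with a listed peak was not computed, because no hg19 annotation was used. Whether 4 of 10 is a usual share was therefore not tested. U2AF2 had 9 peaks, SF3B2 had 7, PHF5A had 4 and SF3A3 had 1. Of the 9 regions, 6 (66.7%) had a peak in all 3 lists and 3 had a peak in 1 list, beside 59.3% of all 25737 regions with a peak in all 3 lists, so the share lay near that of the whole series. The 6 shared regions lay in 3 genes, U2AF2, SF3B2 and PHF5A. No peak on a gene's strand reached into a window with its centre outside it.

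**Figure D1:**
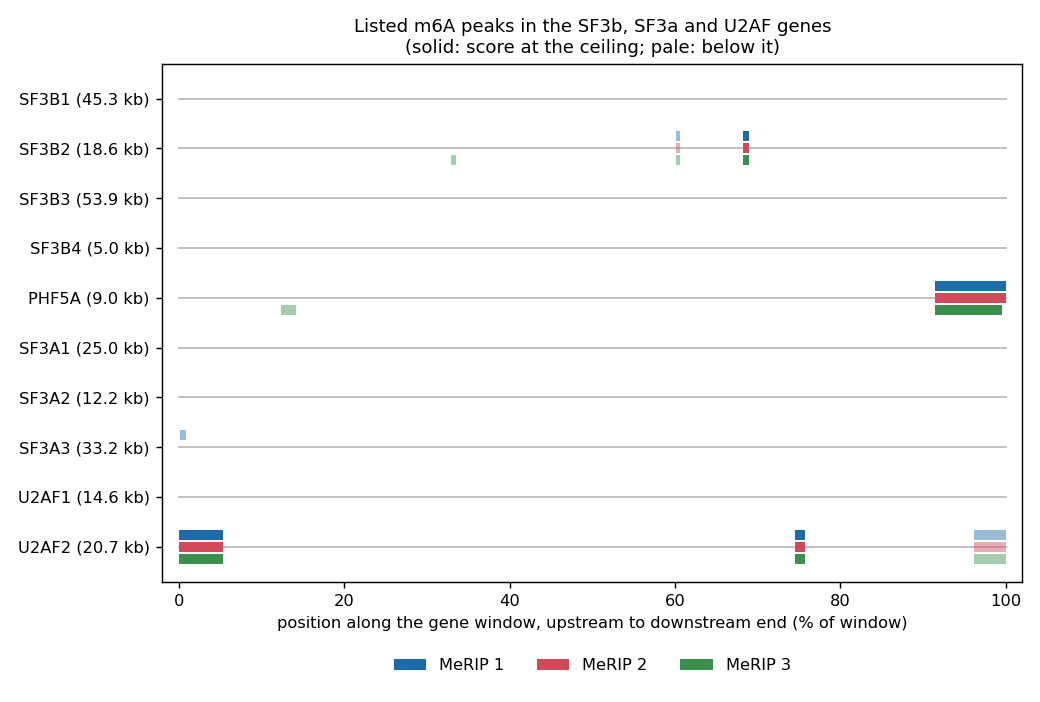
Listed peaks along the 10 gene windows, drawn from the upstream (0%) to the downstream end (100% of the window), with 1 bar per peak and 1 row and colour per list; solid bars had a score at the ceiling of 3100 and pale bars a lower one. U2AF2, SF3B2 and PHF5A carry bars of all 3 lists, SF3A3 carries 1 bar of MeRIP 1, and the lines of the other 6 genes, SF3B4 among them, are empty.

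The authors gave each peak a score, which ran from 50 to 3233. A score of exactly 3100 was shared by 3703 peaks in MeRIP 1, 3377 in MeRIP 2 and 3565 in MeRIP 3, and 101, 95 and 84 peaks scored above it. Peaks of 3100 or more are called at the ceiling here. The range resembles the scaled log10 p-value that older MACS versions write, although no header states the scale. The score depends on read coverage and peak width as well as on methylation, and a ratio of scores is not a fold of methylation. The strength of a region is therefore given as its score and as the share of peaks of the same list with a lower score. With 3 lists of a single condition no two-sided exact test can give a p under 0.25, and differences between regions were set against their spread over the lists. Of the 6 shared regions, 4 were at the ceiling in every list, beside 18.9% of the 15265 shared regions of the series. The 4 lay in 3 genes, of a set chosen with results of these data known, and no test was run on this count. A score at the ceiling stood above 82.1 ± 0.373% of the peaks of its list (SD, n = 3 lists).

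Among the SF3b genes, SF3B2, which binds SF3B4 and helps to anchor SF3b at the branch site, carried 3 narrow regions inside its window of 18580 bp. That window was 1635 bp longer than the RefSeq gene in GRCh38.p14, of 16945 bp, so places along it are not places along the gene. The strongest was 143 bp wide, at chr11:65830871-65831013 on the plus strand, and scored 3100 in MeRIP 1, MeRIP 2 and MeRIP 3. It lay 68.2 to 69.0% of the way along the window, and its edges were identical, to the base, between the lists. Of the 2120 shared regions of the series up to 150 bp wide, 2.88% were at the ceiling in all 3 lists. That limit lies close above the width of this region. With the limit of 300 bp used for the width classes below, the share was 4.39% of 5220 regions.

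A region of 108 bp lay 1401 bp upstream of it, at chr11:65829362-65829469, again with identical edges. Its score was 1645 in MeRIP 1, 2771 in MeRIP 2 and 2064 in MeRIP 3 (2160 ± 569, SD, n = 3 lists), above 77.0 ± 3.72% of the peaks of its list. MeRIP 1 was lowest and MeRIP 2 highest, a 1.68-fold range. Of the 11131 shared regions below the ceiling, 52.4% had scores within 2-fold of one another.

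The remaining region of SF3B2 was found in MeRIP 3 alone. It was 118 bp wide, at chr11:65824309-65824426, 32.9 to 33.5% of the way along the window, and scored 1281. That score exceeded 69.0% of all peaks of MeRIP 3 and 95.2% of those found in MeRIP 3 alone, of which 5.49% scored 1000 or more. Peaks are numbered in the deposited lists in order of position, and part of the numbers are listed. A missing number was therefore read as a peak that was numbered and is not in the list used here. The highest number was 96698 in MeRIP 1, 74706 in MeRIP 2 and 75015 in MeRIP 3, for 21286, 19851 and 20010 listed peaks. Most numbers were thus missing in every list, and most of all in MeRIP 1. A count of missing numbers around a gene need not be particular to that gene. Between the listed peaks on either side of this region, 6 numbers were missing in MeRIP 1, over 38.8 kb, and 4 in MeRIP 2, over 57.7 kb. Whether any of them lay on the region cannot be read from the lists.

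PHF5A, the small zinc-finger protein that lines the branch-adenosine pocket with SF3B1, carried a region at the downstream end of its window. The region covered chr22:41855721-41856491 on the minus strand, 771 bp or 91.4 to 100% of the way along the window, and ended 1 bp from the window's end. It scored 3100 in all 3 lists. Its upstream edge was the same in the 3 lists, and its downstream edge lay 37 bp further inside in MeRIP 3 than in MeRIP 1 and MeRIP 2. It was the only shared region of the 10 genes whose edges differed: 5 of 6 had identical edges, beside 72.7% of the 15079 regions of the series with 1 peak in each list.

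Nearer the start of PHF5A, a region of 167 bp at chr22:41863452-41863618 was found in MeRIP 3 alone with a score of 88.8, the weakest of the 21 peaks. It exceeded 14.3% of all peaks of MeRIP 3 and 53.9% of those found in MeRIP 3 alone. Between the listed peaks on either side of it, 2 numbers were missing in MeRIP 1 and 3 in MeRIP 2. Together its regions covered 10.4% of the window of PHF5A, beside 1.99% for the 3 regions of SF3B2.

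SF3B4, the subunit that contacts RNA next to the branch site and whose loss of a copy causes Nager syndrome, had no listed peak in its window at chr1:149895200-149900236 on the minus strand. The lists were not empty around it: 10 regions lay within 100 kb, and the nearest listed peaks, also on the minus strand, lay 5765, 5775 and 5765 bp beyond its downstream end in MeRIP 1, 2 and 3 and 13317, 14387 and 13817 bp beyond its upstream end. Peak numbers give a further measurement. In MeRIP 2 the flanking peaks were numbers 4319 and 4320, with 0 missing numbers in the 25.2 kb between them. In MeRIP 1 they were 5450 and 5453, with 2 missing numbers in 24.1 kb, and in MeRIP 3 they were 4258 and 4260, with 1 missing number in 24.6 kb (1 ± 1 missing, SD, n = 3 lists). In every list the numbers rose with position at 100% of steps within chromosomes and none was used again. Neighbouring listed peaks had consecutive numbers in 39.7% of cases in MeRIP 2, so a step with no missing number was common. The numbers missing in MeRIP 1 and MeRIP 3 could lie in the SF3B4 window or beside it.

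SF3B1, the largest SF3b subunit and a frequent site of mutation in myelodysplastic syndromes, had no peak in a window of 45316 bp. No region lay within 100 kb of it on either strand. The listed peaks on either side were 1112 kb apart in MeRIP 1, 779 kb in MeRIP 2 and 766 kb in MeRIP 3, with 32, 14 and 7 missing numbers. SF3B3, a scaffold subunit built of beta-propellers, had the longest window of the 10 genes, at 53882 bp, and no peak. Its flanking peaks were 164 kb apart with 3 missing numbers in MeRIP 1, and 261 kb apart with 16 in MeRIP 2 and 12 in MeRIP 3. For these genes the missing numbers could lie in the window or beside it. Most numbers were missing throughout every list, so these counts need not be particular to SF3B1 or SF3B3.

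**Figure D2:**
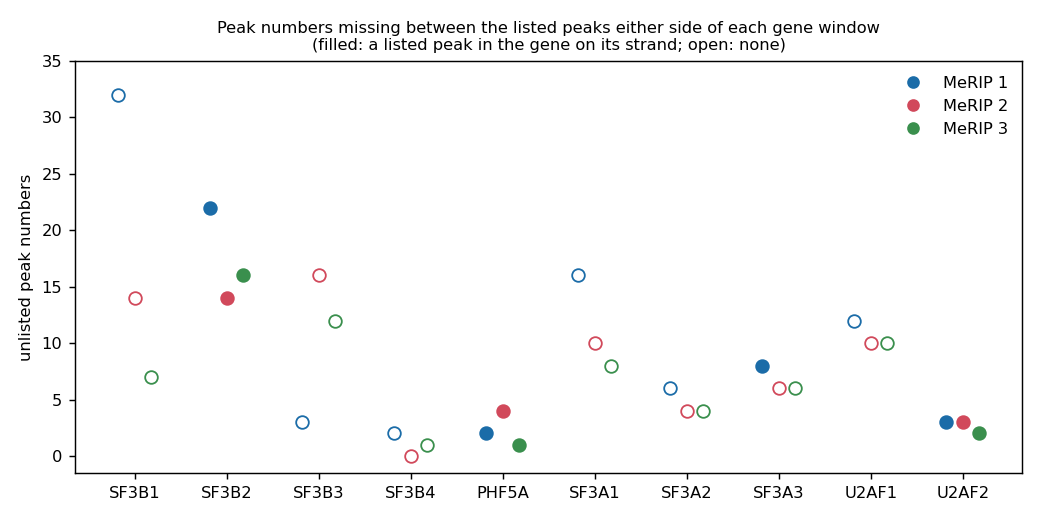
Number of missing peak numbers (vertical axis) between the listed peaks on either side of each gene window, with 1 point per list; filled points had a listed peak in the gene on its strand. SF3B4 has 2, 0 and 1 in MeRIP 1, 2 and 3, and SF3B1 has 32, 14 and 7 over a span of 766 to 1112 kb; spans differ between genes, so heights are not rates.

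Of the SF3a genes, which help to assemble the U2 particle, SF3A3 alone had a peak on its own strand. It was 220 bp wide, at chr1:38455542-38455761 on the minus strand, 64 bp inside the upstream end of the window, and was found in MeRIP 1 alone. Its score of 328 exceeded 45.1% of all peaks of MeRIP 1 and 87.6% of those found in MeRIP 1 alone. MeRIP 2 and MeRIP 3 each had 6 missing numbers between the listed peaks around it, over 139 kb.

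SF3A1, whose ubiquitin-like domain contacts the U1 particle, and SF3A2, a zinc-finger subunit, had peaks on the opposite strand in their windows. Those at SF3A1, and those of MeRIP 2 and MeRIP 3 at SF3A2, crossed the upstream end of the window. At SF3A1 a plus-strand peak of 498 bp at chr22:30752624-30753121 had identical edges in all 3 lists, with 313 bp inside the window. It scored 855 in MeRIP 1, 630 in MeRIP 2 and 529 in MeRIP 3, above 63.0, 58.1 and 53.3% of the peaks of these lists. In GRCh38.p14 the protein-coding gene CCDC157 overlaps this end of SF3A1. At SF3A2 a minus-strand peak of 798 bp at chr19:2236154-2236951 scored 574 in MeRIP 2 and 1145 in MeRIP 3, with 442 bp inside the window. MeRIP 1 had instead a peak of 357 bp at chr19:2237294-2237650, wholly inside the window, with a score of 145. The nearest protein-coding gene upstream of SF3A2 in GRCh38.p14 is PLEKHJ1. The labels do not say whether the libraries kept strand, so the gene that gave this RNA cannot be told apart from its neighbour. The numbers missing between the listed peaks on either side of the windows, which count peaks of either strand, were 16, 10 and 8 at SF3A1 over 52.0, 60.1 and 52.0 kb, and 6, 4 and 4 at SF3A2 over 57.2 kb in each list.

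Of the U2AF partners, U2AF2, the large subunit, had 3 regions, each in all 3 lists with identical edges, while U2AF1, the small subunit, had none in a window of 14638 bp. The 3 regions covered 2136 bp, 10.3% of the U2AF2 window. At U2AF1 the flanking peaks were 343, 385 and 343 kb apart with 12, 10 and 10 missing numbers in MeRIP 1, 2 and 3, and 2 regions lay within 100 kb.

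The first U2AF2 region began 6 bp inside the upstream end of the window and was the widest of the 9, at 1104 bp, covering chr19:56165416-56166519 on the plus strand. It scored 3100 in all 3 lists. The hg19 window was 991 bp longer than the RefSeq gene in GRCh38.p14, 20673 against 19682 bp, so how much of this region lies before the RefSeq start shown above was not analysed here. The middle region, of 249 bp at chr19:56180810-56181058, lay 74.5 to 75.7% of the way along and also scored 3100 in all 3 lists. Of the 5220 shared regions of the series up to 300 bp wide, 4.39% were at the ceiling in all 3 lists, against 17.4% of those over 300 and up to 1000 bp wide and 36.2% of wider ones.

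The last U2AF2 region ended at the downstream end of the window to the base, at chr19:56185300-56186082, and was 783 bp wide. It scored 1478 in MeRIP 1, 1899 in MeRIP 2 and 2463 in MeRIP 3 (1947 ± 494, SD, n = 3 lists), above 75.6 ± 3.42% of the peaks of its list. The range was 1.67-fold. Its scores overlapped those of the 108-bp region of SF3B2 and the means differed by less than the spread between lists. MeRIP 1 gave the lowest score at both, while MeRIP 3 was highest here and MeRIP 2 at SF3B2. By score, the 4 regions tied at the ceiling came first, followed by these 2. That order depended on width: ranked among peaks of the same width class of their list (up to 300 bp, over 300 and up to 1000 bp, or wider), the 143-bp region of SF3B2 and the 249-bp region of U2AF2 stood above 95.7% of peaks and the 108-bp region of SF3B2 above 93.3%. In the same ranking the 771-bp region of PHF5A stood above 82.4%, the 783-bp region of U2AF2 above 74.7% and the 1104-bp region of U2AF2 above 60.2%. For the 4 regions at the ceiling these are the highest values that their width class allows. They therefore do not order the 4 by strength, nor place the 1104-bp region below the 783-bp region. The listed peaks next to the U2AF2 window were close, 882 bp upstream in all 3 lists and 3810, 478 and 489 bp downstream in MeRIP 1, 2 and 3, all on the plus strand, with 3, 3 and 2 missing numbers among them.

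**Figure D3:**
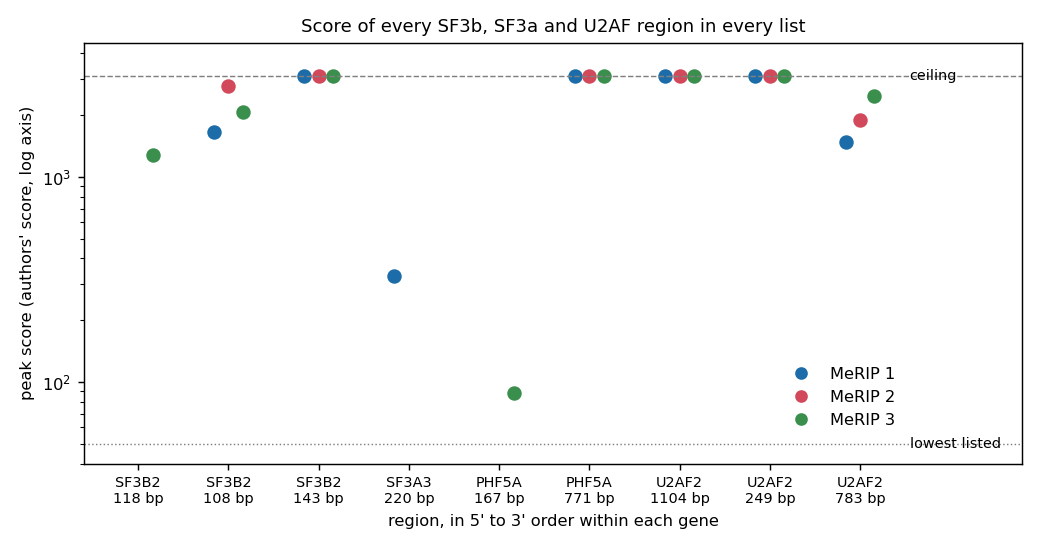
Score of the 9 regions in each list (vertical log axis), ordered 5′ to 3′ within each gene and labelled with the region's width; 1 point per list, dashed line at the ceiling of 3100 and dotted line at the lowest listed score of 50. The 4 regions at the ceiling have all 3 points on the dashed line, the 108-bp region of SF3B2 and the 783-bp region of U2AF2 spread between 1478 and 2771, and the 3 regions of 1 list have 1 point each.

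By place, the first U2AF2 region lay at the upstream end of its window. PHF5A and U2AF2 each had a region of 771 or 783 bp that ended at, or 1 bp from, the downstream end of the window. The 108-bp and 143-bp regions of SF3B2 and the 249-bp region of U2AF2 lay inside their windows, and were wider than 9.24, 18.4 and 39.5% of all regions of the series. Of the 5 regions with identical edges 4 had a width divisible by 3, beside 37.9% of the 10960 such regions in the series. The 5 lay in SF3B2 and U2AF2 alone, and no test was run on this count. Without an hg19 annotation, whether any of these widths is that of an exon was not tested.

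**Figure D4:**
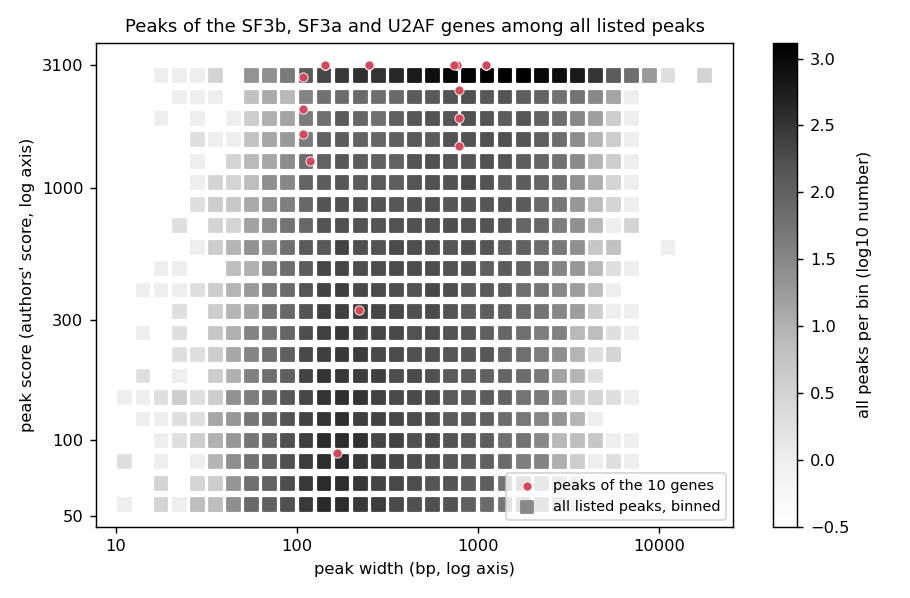
Peak width (horizontal log axis, bp) against score (vertical log axis) for the 21 peaks of the 10 genes, drawn as red points over all 61147 listed peaks in grey bins; peaks with the same edges and score in several lists lie on one another. Peaks of 143 and 249 bp sit at the ceiling of 3100, where the median width of all peaks was 1170.5, 1180.5 and 1182 bp in MeRIP 1, 2 and 3.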

How the data were processed

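MeRIP-seq was run on 3 repeats of wild-type HEK293T cells, each with an IP and an input library of total RNA depleted of ribosomal RNA, read as 150 bp paired ends, as the labels' protocols state. Build hg19, HISAT2 2.0.4 and cutadapt 1.9.3 are named in the submitters' processing notes. Peak names carry the word MACS. The version and options of MACS were not given in the sources used here. Each repeat has 1 list that the authors deposited, with the position, strand and score of each peak. Whether the repeats came from separate cultures is not stated, so SDs may be technical. Read depth is unknown, and peak lists hold no expression levels against which the cell line could be checked.

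Gene windows were fixed hg19 intervals. Positions count from 1. Scores above 3100, of which the lists held 101, 95 and 84, were set to 3100 before ranking. A region took the highest score per list. Every region of the 4 genes with peaks is named. The 10 genes and all measures were chosen with earlier results of these data known. The joining and assignment steps were tested on simulated data. Alternatives were another overlap, score limit, membership rule, strand rule and leaving out each repeat. No hg19 genome or annotation was used, so 20 other genes of branch site recognition and motifs within peaks were not analysed here. Python 3.11.15, NumPy 2.4.6, pandas 2.3.3 and Matplotlib 3.10.9 were used.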

Additional observations from a re-analysis of the deposited data

How the results depend on the processing

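No paired analysis was possible because a list gives 1 score per peak for IP and input together, so IP and input have no values of their own to pair. The counts of regions, shared regions, genes with a shared region, identical edges and regions at the ceiling stayed within 1.5 times their values under every alternative run. The largest move was with strand ignored, which took in the opposite-strand peaks of SF3A1 and SF3A2 and gave 12 regions instead of 9, 7 shared regions instead of 6 and 4 genes instead of 3. With peaks below the median score of their list removed, 7 regions remained. All 6 shared regions were counted, because each scored above the median in every list. Leaving out 1 repeat gave 7 to 9 regions and 6 shared regions each time. The 6 could not change, because every other region had a peak in 1 list alone. Missing numbers around SF3B4 averaged 0.5 to 1.5 without 1 repeat, an alternative chosen after seeing the data. Score percentiles depended on the peaks they were ranked among: within the same width class the first U2AF2 region stood at 60.2% instead of 82.1%, the 108-bp region of SF3B2 at 93.3% instead of 77.0%, and the 143-bp region of SF3B2 and the 249-bp region of U2AF2 at 95.7%. For regions at the ceiling, the first U2AF2 region among them, these are the highest values possible in their class. Since depth is unknown, a gene with no listed peak is not shown to be unmethylated.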
